A study of Mus musculus with 29 samples.

Results

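Acyl-CoA synthetases are the enzymes that join a free fatty acid, acetate or acetoacetate to coenzyme A. The 10 genes described here are Acsbg1, Acsl6, Acsl1, Acsl3, Acsl4 and Acsl5, which act on long-chain fatty acids, Acss1 and Acss2, which act on acetate, Acsf2, which acts on medium-chain fatty acids, and Aacs, which acts on acetoacetate. They were chosen by symbol, with earlier results of these data known. All 10 were found among the 54532 gene IDs of the cell-type table and the 55421 of the Smad table. The series of 29 samples asks which lipid genes are higher in regulatory T (Treg) cells of C57BL/6 mice and what Smad2 and Smad3 do for Acsl6. RNA was measured with a kit that sequences 1 tag near the 3′ end of each polyadenylated transcript, so levels are counts per 1000000 counted tags (CPM) and are not divided by gene length. Of the cell-type experiment, 3 libraries were naive splenic CD4 T cells. Another 3 were Th0 cells, made from such cells by a 5-day stimulation with 15 ng/ml IL-2 present. The last 3 were Treg cells, made in the same way but with 10 ng/ml human TGF-beta added (hTGFb). The other experiment kept this Treg condition throughout and compared a control whose label names no guide RNA with sgSmad2, sgSmad3 and sgSmad2/3, at 2 libraries a group. How the guides and the nuclease were delivered, and whether the control held a non-targeting guide, is not given in the sources used here. Nor is it stated if the replicates are different mice or different cultures, and a p-value therefore reflects only how far these libraries vary, which could be technical variation.

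A fatty acid must become an acyl-CoA before a cell can burn it in mitochondria, build it into membrane or storage lipid, or attach it to a protein. The long-chain enzymes sit in different membranes and prefer different chains: Acsl4 favours arachidonate, Acsl3 lies on lipid droplets and the endoplasmic reticulum, and Acsl6 and Acsbg1 are best known from brain, where Acsl6 favours docosahexaenoate and Acsbg1 is named for the bubblegum fly mutant. Acss2 works in the cytosol and nucleus, Acss1 in the mitochondrial matrix, and Aacs turns ketone bodies into cytosolic lipid precursors. TGF-beta signals through the receptor-activated factors Smad2 and Smad3. With IL-2 present, it drives stimulated naive CD4 T cells toward a Foxp3-expressing state.

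The sequence upstream of Acsbg1 and Acsl6 is shown because these were the 2 genes that differed between Treg and Th0. Both are RefSeq sequences (GRCm38.p6), read 5′ to 3′ on the strand of the gene and ending at the base before its annotated start. Capitals mark the Smad box, searched as CAGAC or its reverse complement GTCTG. The Acsbg1 stretch is chr9:54661886-54662135 on the minus strand and holds 1 box. The Acsl6 stretch is chr11:54303574-54303804 on the plus strand and holds 0 whole boxes. Of the 3 windows around RefSeq starts of Acsl6, 2 held 1 box each, and 1 of these boxes begins at the last base printed here.
Acsbg1: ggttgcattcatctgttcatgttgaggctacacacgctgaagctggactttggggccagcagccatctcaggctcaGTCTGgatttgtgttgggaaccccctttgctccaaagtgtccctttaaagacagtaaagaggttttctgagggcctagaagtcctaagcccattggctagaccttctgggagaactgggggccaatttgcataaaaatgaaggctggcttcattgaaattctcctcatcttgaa
Acsl6: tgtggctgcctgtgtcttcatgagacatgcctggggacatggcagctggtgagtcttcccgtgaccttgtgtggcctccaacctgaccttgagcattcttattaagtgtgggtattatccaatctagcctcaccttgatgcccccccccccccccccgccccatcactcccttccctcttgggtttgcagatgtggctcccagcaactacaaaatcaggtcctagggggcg
Over the 300 bases that run from 250 before to 50 after a RefSeq start, 6 of the 13 windows of the 10 genes held a box, against 49.6% of 32851 windows of all genes. The palindrome GTCTAGAC, which contains neither form of the box, was in 0 of the 13 windows and in 0.213% of all. These matches describe letters in a short window and say nothing about binding.

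Reads per library ranged from 797612 to 1551478 in the cell-type table and from 1294583 to 1602297 in the Smad table, so 1 CPM was roughly 1 read. For the Smad table these reads were inferred from an unnamed last line. All 6 T cell markers were detected in every group. Foxp3, the defining factor of Treg cells, was 137.8 to 206.7 CPM in Treg and 8.6 to 13.8 in Th0, and it was 82.7 to 91.7 in the naive libraries. Hemoglobin and other red-cell markers summed to 496 to 1172.5 CPM in naive libraries and to at most 5.5 in Th0 and Treg, and B cell markers to 203 to 390 CPM in naive and 98.5 to 113 in the cultures. Between the cultures the CD8 or NK cell list was 111 to 306 CPM in Treg and 61.2 to 143 in Th0. By group means its largest part was Eomes, at 143 CPM in Treg and 65.7 in Th0. Nkg7 (32.5 and 24.6) and Klrd1 (14.8 and 1.89) were also higher in Treg. Cd8a reached at most 4.51 CPM in Treg and 2.22 in Th0. Cd8b1 ran lower in Treg, at most 4.90 CPM against 7.77, and Ncr1 and Klrb1c were at 0 there. Whether the higher sum in Treg reflects other cells, and the part of these lists in the results, was not tested. In bulk RNA, fewer cells of a type and less RNA per cell cannot be told apart. Of the 10 genes, 8 have another annotated gene within their span (all but Acsl4 and Aacs), and the strand setting of the counting is not given, so tags of such a pair could be mixed.

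Treg against Th0 asks what TGF-beta added to the same 5-day culture. Acsbg1 and Acsl6 rose about 4-fold, and none of the other 8 synthetases passed the test. Acsbg1 was 49.5, 58.0 and 51.9 CPM in Treg replicates 1, 2 and 3, against 10.6, 16.6 and 8.57 in Th0 and 11.3, 6.19 and 8.18 in naive cells. All 3 Treg libraries lay above all 6 others, while the Th0 and naive ranges overlapped. The change from Th0 to Treg was 2.11 on the log2(CPM + 1) scale (SE 0.31, 95% interval 1.47 to 2.75, limma adjusted p = 0.000138). From naive to Th0 the change of 0.42 did not pass (SE 0.31, limma adjusted p = 0.291).

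Acsl6 went from undetected in naive cells to low in Th0 and high in Treg. It was listed at 0 in all 3 naive libraries, where 3 reads, the limit a count of 0 allows, come to 3.76 CPM in the shallowest library. Th0 libraries held 8.48, 11.1 and 9.80 CPM, from 8, 10 and 8 reads. Treg libraries held 23.7, 56.7 and 62.7 CPM, from 22, 88 and 64 reads. The 3 groups did not overlap, but Treg replicate 1 was far below the other 2. Foxp3 was also lowest in that library (137.8 CPM, against 191 and 207), whereas Acsbg1 was similar in all 3. This likeness of Acsl6 and Foxp3 rests on 1 library. For Acsl6, Treg exceeded Th0 by 2.07 (SE 0.44, 95% interval 1.14 to 2.99, limma adjusted p = 0.00615). This call was lost without Treg replicate 2 (1.88, limma adjusted p = 0.0652) or 3 (1.81, limma adjusted p = 0.065) and with a pseudocount of 0.1 (2.16, limma adjusted p = 0.0815), and kept in 13 of 16 alternatives (adjusted p from 2.14e-09 to 0.0815). Against the limit in naive cells, Acsl6 was at least 2.60-fold higher in Th0 and at least 12.7-fold higher in Treg.

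**Figure D1:**
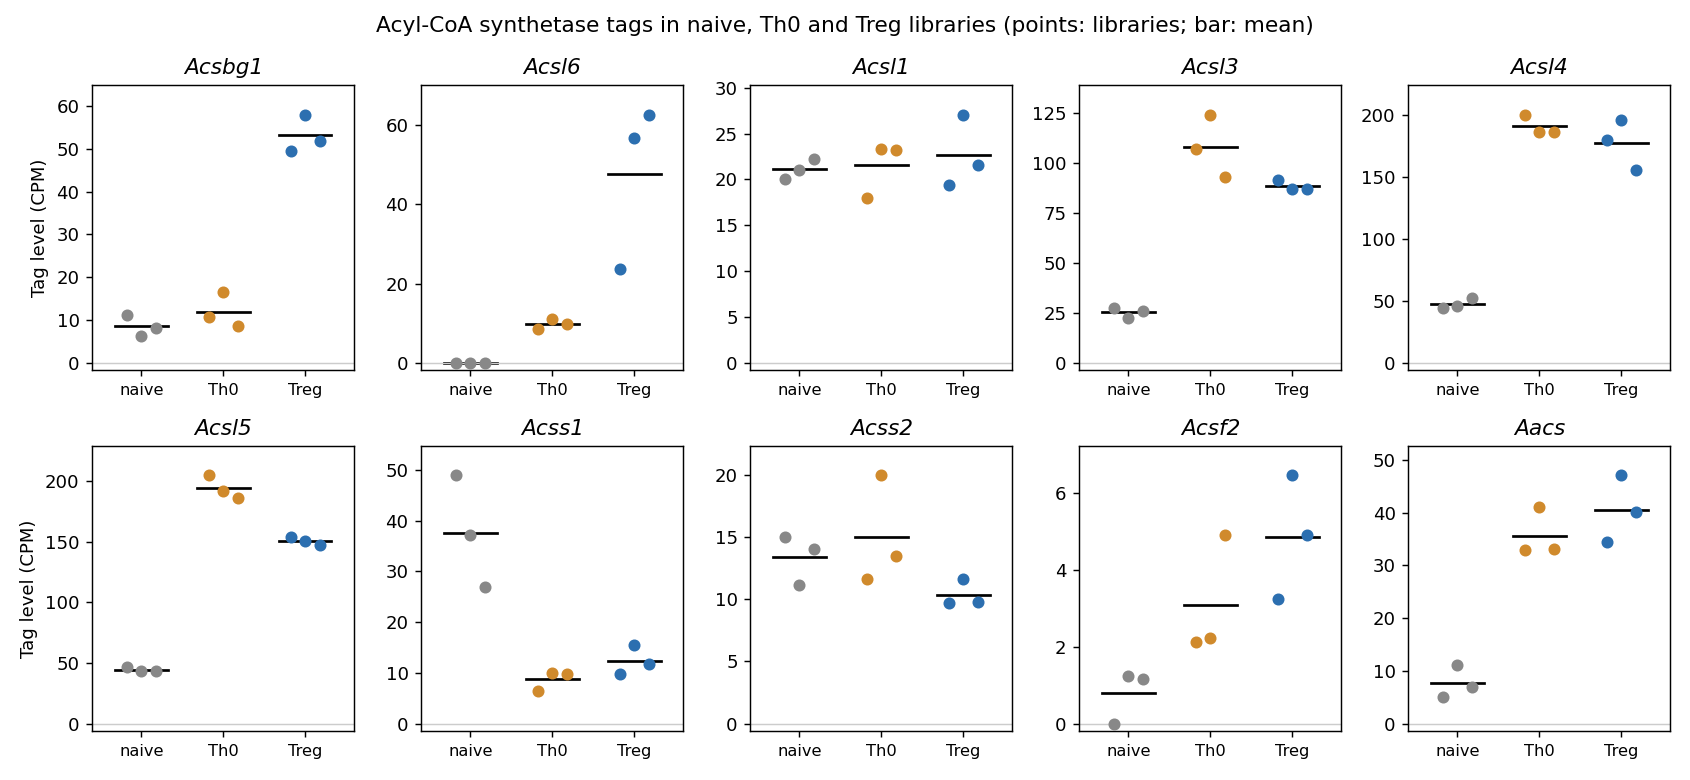
Tag level (CPM, linear axis with its own scale in each panel) of the 10 genes in 3 naive, 3 Th0 and 3 Treg libraries; each point is a library and each bar a group mean. Acsbg1 and Acsl6 are high in Treg alone, whereas Acsl3, Acsl4, Acsl5 and Aacs are high in both cultures and Acss1 is high in naive cells.

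The calls in Treg against Th0 were 2 higher and 0 lower of 10, where 2.99% of all 14165 genes tested were called higher and 2.45% lower. The 10 were chosen with earlier results of these data known, so setting them beside all genes does not test the family. The median change of the 10 was 0.12, against -0.01 over all genes. Judged by ranges alone, 2 of the 10 lay above Th0 in every library (10.0% of all genes did) and 3 lay below (11.2%): Acsl3, Acsl5 and Acss2. Acsl5, an enzyme of the endoplasmic reticulum and mitochondria, was 154, 150 and 147 CPM in Treg and 204, 192 and 186 in Th0. Its change was -0.37 (95% interval -0.61 to -0.13) and missed the threshold in limma (adjusted p = 0.0755), but was called by edgeR on the recovered reads (-0.36, adjusted p = 0.0372) and when the fit held only Th0 and Treg (limma adjusted p = 0.0333). The changes of Acsl3 (-0.28, limma adjusted p = 0.435) and Acss2 (-0.47, limma adjusted p = 0.569) did not pass the test. The 8 changes not called ran from -0.47 to 0.55.

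**Figure D2:**
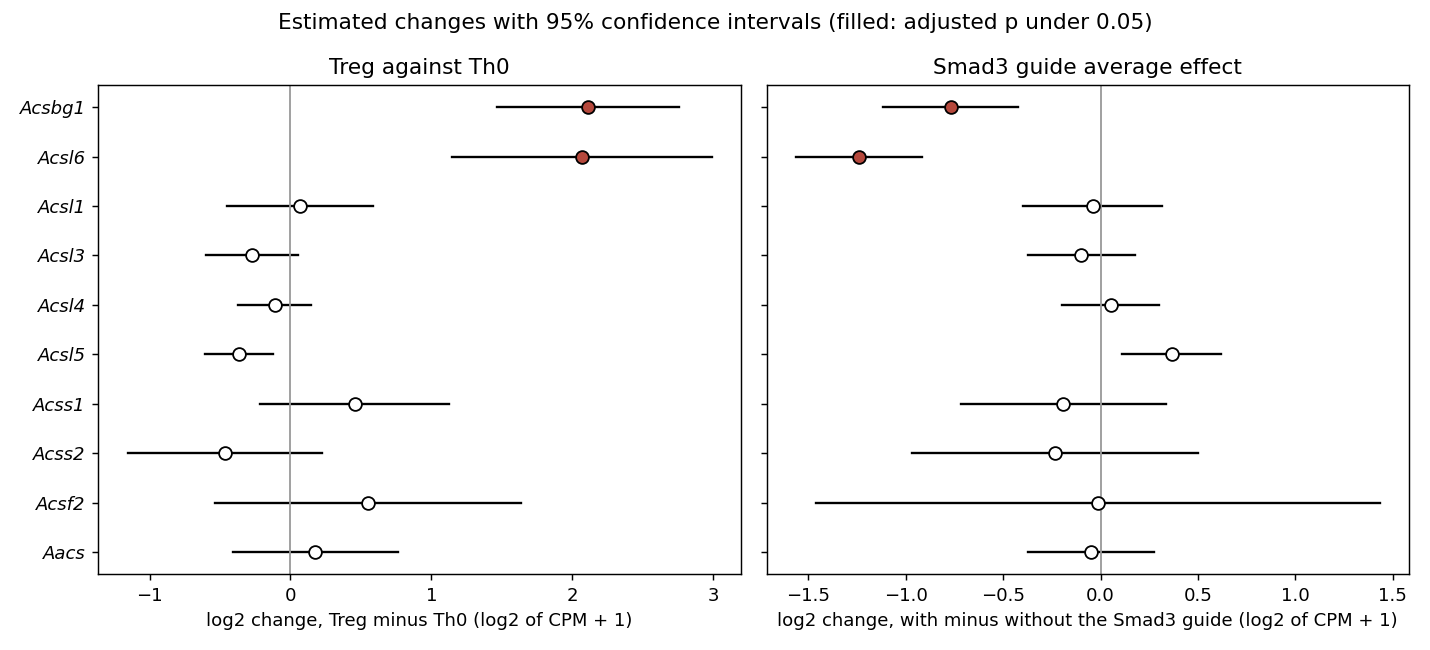
Change on the log2(CPM + 1) scale with its 95% interval for the 10 genes, left for Treg minus Th0 (3 against 3 libraries) and right for Treg cultures with minus without the Smad3 guide (4 against 4); filled points have a limma adjusted p under 0.05. Acsbg1 and Acsl6 are the filled points on both sides, to the right of 0 in the left panel and to the left of 0 in the right panel.

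Most of the family differed between naive and cultured cells. Stimulation, IL-2, 5 days in culture and the red-cell and B cell tags of the naive libraries differ here and cannot be told apart. Against naive cells, 7 of the 10 rose and 1 fell in Treg (23.3% and 16.5% of all genes), and 5 rose and 1 fell in Th0 (24.3% and 17.6%). Treg and Th0 share the naive libraries in these comparisons. The median change of the 10 was 1.77 in Treg and 1.60 in Th0, or 1.77 and 1.29 with Acsl6 set at its bound, while the median over all genes was 0.08 in both.

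Acsl3, Acsl4 and Acsl5 rose about 3- to 4-fold in both cultures. Acsl4, whose preferred product is arachidonoyl-CoA, was 43.9, 45.8 and 52.6 CPM in naive cells, 200, 186 and 186 in Th0 and 180, 196 and 156 in Treg. Its change from naive was 1.99 in Th0 (SE 0.12, limma adjusted p = 1.62e-10) and 1.88 in Treg (SE 0.12, limma adjusted p = 4.16e-10), and the Th0 and Treg ranges overlapped. Acsl5 was 46.4, 43.4 and 43.2 CPM in naive cells, and rose by 2.11 in Th0 (limma adjusted p = 2.31e-11) and by 1.74 in Treg (limma adjusted p = 3.89e-10). Acsl3, the lipid-droplet enzyme, was 27.6, 22.3 and 25.7 CPM in naive cells, 107, 124 and 93.1 in Th0 and 91.5, 87.0 and 87.2 in Treg. It rose by 2.05 in Th0 (limma adjusted p = 2.52e-09) and by 1.78 in Treg (limma adjusted p = 2.12e-08). Across the 9 libraries, log2 levels of Acsl3, Acsl4 and Acsl5 had Pearson correlations of 0.982 to 0.992 with one another, over points that fall into naive and cultured groups.

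Acsl1, the form best known from liver, fat and heart, stayed between 18.0 and 27.1 CPM in all 9 libraries. Its change from naive was 0.02 in Th0 (95% interval -0.50 to 0.54) and 0.09 in Treg (-0.43 to 0.61).

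Summed over the 6 long-chain genes, Th0 and Treg held nearly the same amount of tags. The sum was 147 ± 6.96 CPM in naive cells, 537 ± 25.6 in Th0 and 540 ± 30.8 in Treg (SD, n = 3 each). Within that sum Acsl6 made up 1.83% ± 0.25 in Th0 and 8.79% ± 3.79 in Treg, and Acsbg1 2.21% ± 0.70 and 9.84% ± 0.26. Acsl5 was 36.2% ± 1.37 of the sum in Th0 and 27.9% ± 1.80 in Treg, and Acsl4 35.6% ± 1.70 and 32.8% ± 2.78. Acsl4 and Acsl5 thus held most tags of the 6 in both. Shares within a sum are tied to each other and were not tested.

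**Figure D3:**
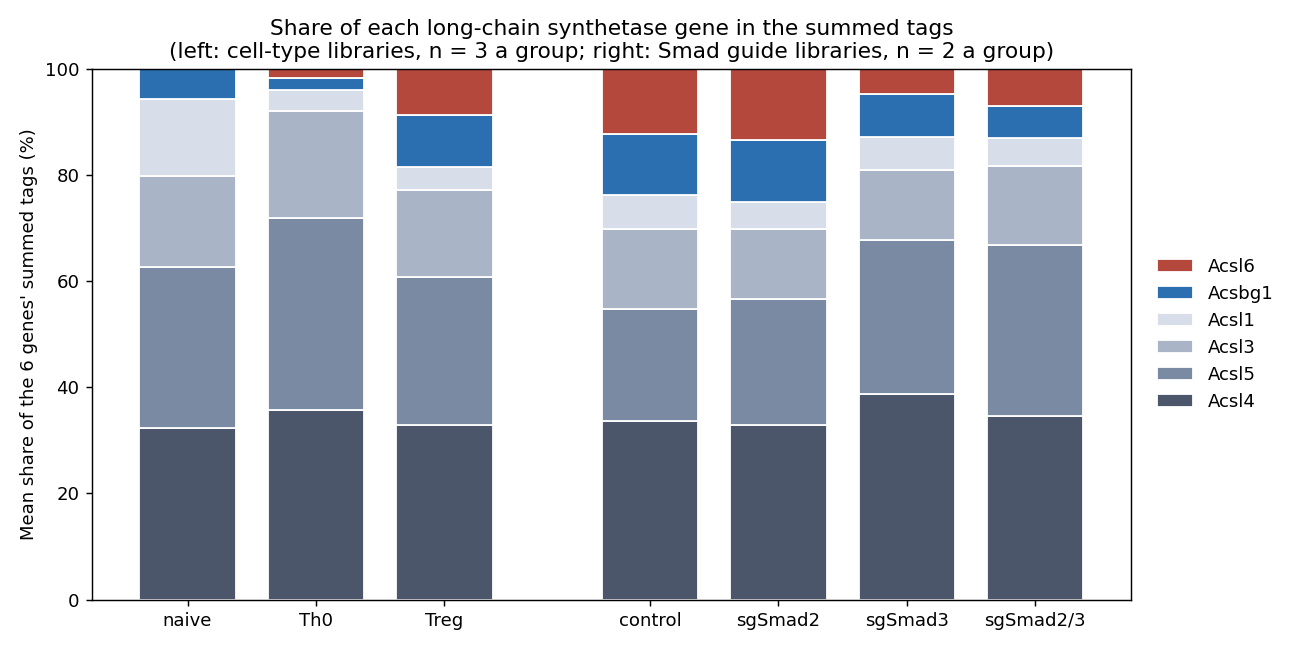
Mean share (percent) of each of the 6 long-chain genes in their summed tags, for the 3 groups of the cell-type experiment (n = 3) and the 4 groups of the Smad experiment (n = 2). Acsbg1 and Acsl6 together take a wide band in Treg, control and sgSmad2, and a narrow one in Th0.

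The acetate enzymes went the other way or stayed level. Acss1, the mitochondrial form, was 48.9, 37.2 and 26.9 CPM in naive cells, 6.36, 9.99 and 9.80 in Th0 and 9.69, 15.5 and 11.7 in Treg. Every naive library lay above every cultured one. It fell by 1.98 in Th0 (SE 0.32, limma adjusted p = 5.14e-05) and by 1.52 in Treg (SE 0.32, limma adjusted p = 0.000774). Acss2, the cytosolic and nuclear form, was 11.2 to 15.0 CPM in naive cells, 11.7 to 19.97 in Th0 and 9.69 to 11.6 in Treg, and passed in neither comparison with naive cells (limma adjusted p = 0.785 and 0.454). Aacs, the acetoacetate enzyme, was 5.01, 11.2 and 7.01 CPM in naive cells, 32.8, 41.1 and 33.1 in Th0 and 34.5, 47.1 and 40.2 in Treg. It rose by 2.12 in Th0 (limma adjusted p = 4.14e-06) and by 2.30 in Treg (limma adjusted p = 1.62e-06), and the cultures overlapped.

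Acsf2 had few reads. It was 0, 1.24 and 1.17 CPM in naive cells (0, 1 and 1 reads), 2.12, 2.22 and 4.90 in Th0 (2, 2 and 4 reads) and 3.23, 6.45 and 4.90 in Treg (3, 10 and 5 reads). Its rise of 1.75 in Treg passed (SE 0.52, limma adjusted p = 0.0106) but not without naive replicate 1 (1.37, limma adjusted p = 0.0645) or Treg replicate 2 (1.56, limma adjusted p = 0.0522). In Th0 the change of 1.20 did not pass (limma adjusted p = 0.07).

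In the order of group means, Acsbg1 and Acsl6 ran Treg, Th0, naive, with the lower pair indistinct for Acsbg1. Acsl3, Acsl4 and Acsl5 ran Th0, Treg, naive, with overlap between the cultures for Acsl4. Acss1 ran naive, Treg, Th0, with overlap between the cultures.

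The genes most like Acsbg1 over the 9 libraries, by Pearson correlation of log2(CPM + 1), were Gm26771 (0.979), Gm47050 (0.970), Camk2n1 (0.969), Slc26a6 (0.965) and Nrarp (0.963). In the 8 Smad libraries the correlation with Acsbg1 was 0.896 for Nrarp, 0.853 for Camk2n1, 0.778 for Gm47050 and 0.738 for Gm26771, but -0.07 for Slc26a6. For Acsl6 they were Edf1 (0.992), Emp1 (0.991), Fbln1 (0.989), Gm17018 (0.988) and Rell1 (0.983), with correlations between -0.79 (Fbln1) and 0.40 (Emp1) in the Smad libraries. The points within each set share culture groups. Acsbg1 and Acsl6 had a correlation of 0.844 over the 9 libraries and 0.703 over the 8.

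Other genes of acyl-CoA metabolism were followed in 7 lists. Of 15 further acyl-CoA synthetases in the cell-type table, 10 were at 0 in every library and the highest value was 17.3 CPM, of the fatty acid transporter and synthetase Slc27a4. The 5 tested gave 0 calls in limma and in edgeR in any of the 3 cell-type comparisons. None had an unadjusted limma p under 0.05, where 2225 to 6862 of all 14165 genes did. Of 11 thioesterases, which split acyl-CoA again, Ppt1 alone was called in Treg against Th0: it was 57.2 to 69.8 CPM in Th0 and 40.9 to 45.1 in Treg (-0.57, SE 0.16, limma adjusted p = 0.0486). The remaining 6 lists had 0 limma calls in that comparison. In them 0 to 3 genes a list had an unadjusted p under 0.05, as did 2225 of all 14165 genes. There edgeR called the lipoprotein receptor Vldlr lower and the sterol sensor Insig1 higher.
The counts that follow are limma calls against naive cells, where 23.3% of all genes were called higher and 16.5% lower in Treg, and 24.3% and 17.6% in Th0. In both cultures the fatty acid carrier Fabp5 rose, from 8.6 CPM to 103 in Th0 and 127 in Treg. Of 15 genes of acetyl-CoA and ketone body supply, 10 rose in Treg and 9 in Th0. Among them Acly, which makes cytosolic acetyl-CoA from citrate, rose from 69.9 CPM to 258 in Th0 and 237 in Treg, and Hmgcs1, of sterol synthesis, from 79.9 to 816 and 753. Of the 11 thioesterases, 2 rose and 1 fell in Treg and 3 rose and 2 fell in Th0, with Acot7 up by 3.23 and 3.04. For these edgeR gave 1 higher and 1 lower in Treg and 2 higher and 1 lower in Th0. Of 6 acyl-CoA binding proteins, 2 rose and 2 fell in each culture, and Dbi, which carries acyl-CoA in the cytosol, rose by 2.49 in Treg and 2.27 in Th0. Here edgeR gave 1 higher and 3 lower in Treg and 2 higher and 3 lower in Th0. Of 11 lipid transcription regulators, 3 rose and 3 fell in Treg and 2 rose and 3 fell in Th0, with Srebf2, the regulator of sterol genes, up by 1.10 and 0.96. Of 6 carnitine shuttle genes only Cpt2 rose, by 1.53 in Treg (limma adjusted p = 0.0067) and by 1.32 in Th0 (limma adjusted p = 0.0164), while edgeR also called Cpt1a lower in Th0.

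In the Smad experiment the targeted genes were read first. Smad2 was 37 and 29 CPM in the control, 12 and 24 in sgSmad2, 25 and 30 in sgSmad3, and 13 and 18 in sgSmad2/3. The 4 libraries with a Smad2 guide lay below the 4 without, but the change of -0.85 did not pass (limma adjusted p = 0.419). Smad3 was 30 and 34 CPM in the control, 44 and 56 in sgSmad2, 26 and 25 in sgSmad3, and 41 and 37 in sgSmad2/3. The sgSmad3 change was -0.31 (limma adjusted p = 0.632), and in sgSmad2/3 Smad3 was higher than in the control. The sources used here do not give the edited sites, and a tag at the 3′ end does not show an edit. Whether the guides edited their genes is therefore not settled by these levels. Pmepa1, a TGF-beta target, was 647 and 662 CPM in the control, 637 and 716 in sgSmad2, 529 and 504 in sgSmad3, and 343 and 381 in sgSmad2/3. Foxp3 was 177 and 320 CPM in the control, 214 and 393 in sgSmad2, 198 and 257 in sgSmad3, and 189 and 195 in sgSmad2/3. Within the control and sgSmad2, the library with more Foxp3 had less Acsl6. In sgSmad2/3 it had more, and in sgSmad3 Acsl6 was equal in both.

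Acsl6 and Acsbg1 were lower in Treg cultures that carried the Smad3 guide. Acsl6 was 75 and 68 CPM in the control and 82 and 78 in sgSmad2, against 27 and 27 in sgSmad3 and 31 and 43 in sgSmad2/3. The 4 libraries with the Smad3 guide, 32 ± 7.57 CPM (SD, n = 4), lay below the 4 without, 75.8 ± 5.91, with no overlap. The average effect of the guide was -1.24 on the log2(CPM + 1) scale (SE 0.15, 95% interval -1.57 to -0.92, limma adjusted p = 0.000988). Acsbg1 was 69 and 63 CPM in the control and 54 and 86 in sgSmad2, against 46 and 46 in sgSmad3 and 35 and 31 in sgSmad2/3. With the guide it was 39.5 ± 7.68 CPM and without it 68.0 ± 13.5, again with no overlap. Its average effect was -0.77 (SE 0.16, 95% interval -1.12 to -0.42, limma adjusted p = 0.033).

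Both calls depend on which low genes enter the fit. The plan for this table set a minimum of 1 in 2 libraries, under which the values, rounded to whole numbers, tie at 0 and 1. On simulated data of sgSmad3 against control that minimum gave 203 false calls beside 200 changed genes and recovered 12% of 2-fold changes, and a minimum of 5 gave 19 false calls and recovered 55%, so 5 was used. Under the planned minimum of 1 the effects were the same size but 0 of the 10 genes were called (limma adjusted p = 0.148 for Acsl6 and 0.176 for Acsbg1), as were 0 of all genes. In sgSmad3 against control the real data also gave 0 calls at that minimum, where the simulation had given 203 false ones. The simulation gave every gene the same spread, and so cannot decide which minimum suits these data. Without the intensity trend the adjusted p was 0.0904 for Acsl6 and 0.201 for Acsbg1, and over 15 alternatives the call was kept in 12 for Acsl6 and in 5 for Acsbg1. Leaving out any single library kept Acsl6. Acsbg1 was lost without any one of 7 libraries, all but sgSmad2 replicate 1.

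With the minimum of 5, 0.307% of 10737 genes were called higher and 0.624% lower for the Smad3 guide average, and 2 of the 10 synthetases were lower and 0 higher. Here too the 10 were chosen with earlier results known, so the shares do not test the family. The 4 and 4 libraries did not overlap for 3.93% of genes on the higher side and 3.31% on the lower, and for Acsl5, Acsbg1 and Acsl6 among the 10. Acsl5 ran opposite to the other 2: it was 180, 153, 173 and 170 CPM with the guide and 110, 133, 138 and 145 without. Its change of 0.36 (SE 0.12, 95% interval 0.11 to 0.62) did not pass (limma adjusted p = 0.167). Red-cell markers, led by hemoglobin genes, summed to 13 to 25 CPM in the 4 libraries without the Smad3 guide and to 32 to 144 in the 4 with it. Myeloid markers reached 38 to 70 and 49 to 126, with Itgam at 0 in all 4 groups, and T cell markers 1830 to 2366 and 2439 to 2715. The red-cell and T cell sums did not overlap between libraries with and without the guide, whereas the myeloid sums did. Within the T cell list, Trac was 814 to 1146 CPM without and 1224 to 1316 with the guide, and Cd28 43 to 80 and 83 to 132. Cd3d, Cd3e, Cd3g and Cd4 overlapped, and Cd3g ran lower with the guide (119 to 148 CPM, against 137 to 171). The part of these lists in the results was not tested.

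**Figure D4:**
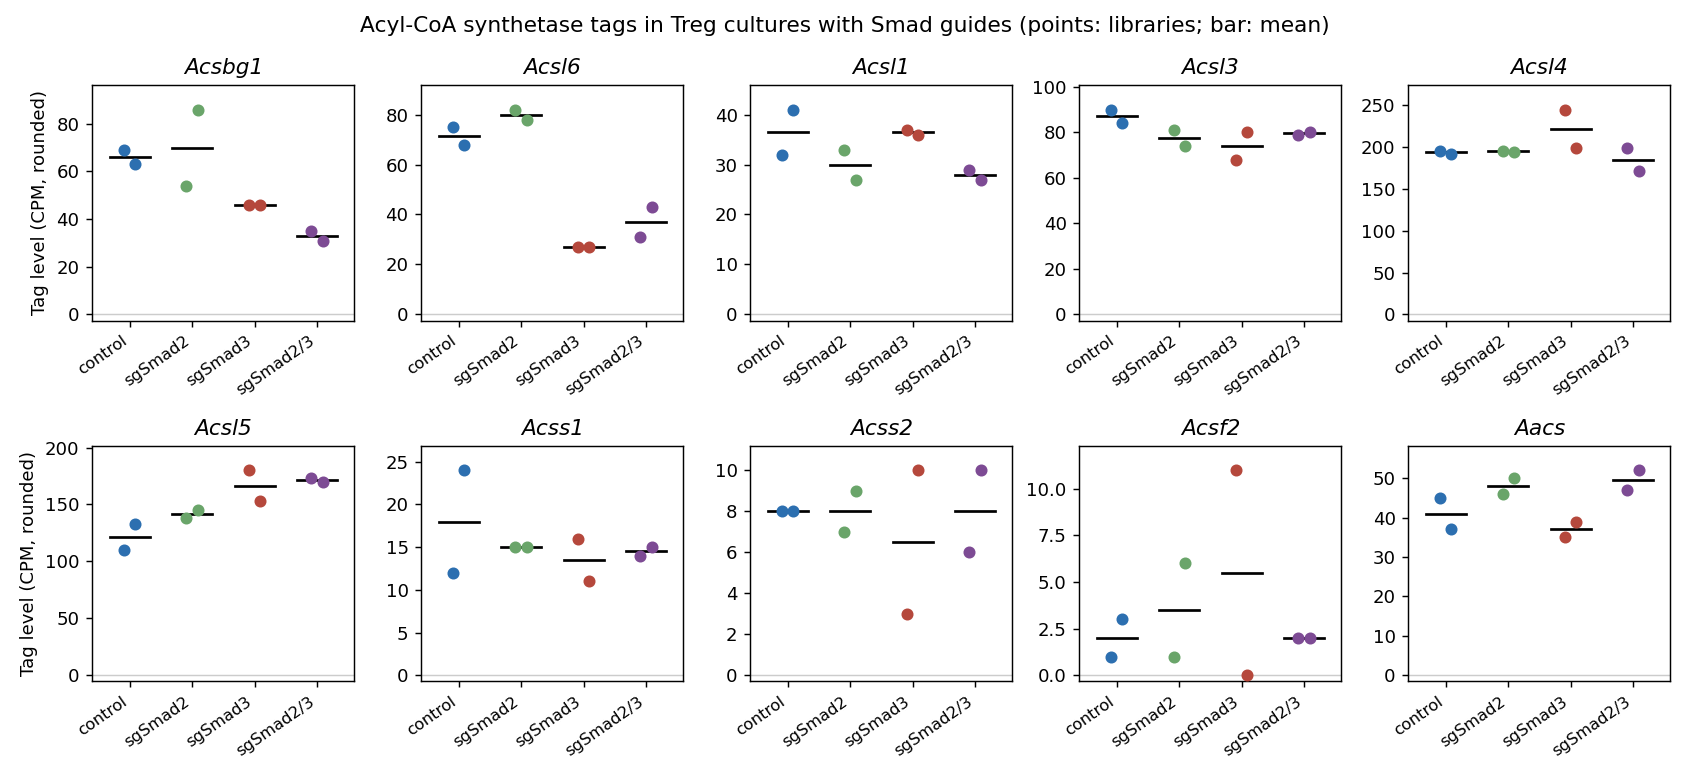
Tag level (CPM as rounded by the authors, linear axis with its own scale in each panel) of the 10 genes in Treg cultures, 2 libraries each of control, sgSmad2, sgSmad3 and sgSmad2/3; each point is a library and each bar a group mean. Acsl6 and Acsbg1 are lower in all 4 libraries with the Smad3 guide than in the 4 without, and Acsl5 is higher.

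Each guide group was also set against the control, which all 3 comparisons share. In sgSmad3 1 of the 10 was called lower and 0 higher (0.0373% and 0.0559% of all genes). That gene was Acsl6, at -1.37 (SE 0.22, 95% interval -1.83 to -0.91, limma adjusted p = 0.0266). The call was lost in 8 of 12 alternatives, among them the planned minimum of 1 (limma adjusted p = 0.118), a fit of these 2 groups alone (limma adjusted p = 0.522) and leaving out any of the 4 libraries (limma adjusted p between 0.0716 and 0.342). Acsbg1 changed by -0.51 in sgSmad3 (SE 0.23) and did not pass (limma adjusted p = 0.426).

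In sgSmad2/3 limma called 0 of the 10 (0.233% of all genes higher, 0.289% lower). An unadjusted limma p under 0.05 was found for 3 of the 10 and for 1137 of all 10737 genes. Acsbg1 was -0.98 (95% interval -1.47 to -0.49, limma adjusted p = 0.0788), Acsl6 -0.95 (-1.41 to -0.49, limma adjusted p = 0.0684, and 0.0479 with quantile normalization) and Acsl5 0.50 (0.14 to 0.86, limma adjusted p = 0.29). In sgSmad2 limma called 0 of the 10 (0.00931% of all genes higher, 0% lower). None of the 10 had an unadjusted p under 0.05, where 347 of all genes did. Acsl6 changed by 0.16 (95% interval -0.30 to 0.62) and Acsbg1 by 0.05 (-0.44 to 0.54). The average effect of the Smad2 guide, 4 libraries against 4, was 0.29 for Acsl6 (-0.03 to 0.62) and -0.21 for Acsbg1 (-0.56 to 0.14). There too 0 of 10 were called (0.0931% of all genes higher, 0.00931% lower). At an unadjusted p under 0.05 there were 0 of the 10 and 512 of all genes. The Smad2 and Smad3 guide averages were not tested against each other, and for Acsbg1 their intervals overlap.

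Whether the double guide departed from the sum of the single guides was tested as an interaction. In limma 0 of the 10 passed, with 0 at an unadjusted p under 0.05 (0% of all genes in either direction, with 312 genes at an unadjusted p under 0.05). The departure was 0.26 for Acsl6 (95% interval -0.39 to 0.91) and -0.52 for Acsbg1 (-1.21 to 0.18). By group means Acsl6 ran sgSmad2, control, sgSmad2/3, sgSmad3, and Acsbg1 ran sgSmad2, control, sgSmad3, sgSmad2/3. Control and sgSmad2 overlapped for Acsbg1.

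Among the other synthetases, Acsl4 was 196 and 192 CPM in the control, 196 and 194 in sgSmad2, 245 and 199 in sgSmad3, and 199 and 171 in sgSmad2/3. Acsl3 ran from 68 to 90 CPM over the 8 libraries and Acsl1 from 27 to 41. Aacs was 46, 50, 47 and 52 CPM with the Smad2 guide and 45, 37, 35 and 39 without. Its average effect of 0.32 (95% interval -0.00 to 0.64) did not pass (limma adjusted p = 0.998). Acss1 was 11 to 24 CPM and Acss2 3 to 10. Acsf2 was 0 to 11 CPM, and its 2 sgSmad3 libraries alone spanned that whole range. The 8 changes not called in the Smad3 guide average lay between -0.23 and 0.36.

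The long-chain sum was 577 ± 6.36 CPM in the control, 594 ± 14.1 in sgSmad2, 572 ± 43.8 in sgSmad3 and 534 ± 17.0 in sgSmad2/3 (SD, n = 2 each). Acsl6 made up 12.4% ± 0.996 of it in the control and 4.73% ± 0.36 in sgSmad3, while Acsl5 went from 21.1% ± 2.59 to 29.1% ± 1.11. In sgSmad2/3 Acsl6 was 6.96% ± 1.81 and Acsl5 32.1% ± 0.62.

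Of the 57 tested genes of the 7 lipid lists together, limma called 0 in each of these 6 comparisons. In each, 3 to 5 of them had an unadjusted p under 0.05, where 312 to 1595 of all 10737 genes did. Over all genes at most 0.307% were called higher and 0.624% lower in these comparisons, so 0 of 57 is near that share. A gene that was not called can still have changed. The Treg cultures without a Smad guide in the 2 experiments can be set side by side, though their tables were normalised separately and were not tested against each other: Acsbg1 was 49.5 to 58.0 CPM in the cell-type experiment and 63 to 69 in the Smad control, and Acsl6 23.7 to 62.7 and 68 to 75.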

How the data were processed

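The build mm10 and the tools STAR (2.7.9a), Bowtie2, deepTools and Subread (2.0.1) appear in the submitters' processing notes without role or order. The sources used here state neither a strand setting nor an annotation. Both deposited tables are called TPM. The cell-type values as deposited were CPM: every column summed to 1000000, and 100% of values were whole multiples of 1 read within 0.01, so reads were recovered. Judged from its values, the Smad table was deposited as CPM rounded to integers and is treated as a score. Its unnamed last line (at most 7.72e-05% of a column) was left out of the genes. That line was read as the worth of 1 read, and the reads per library of this table were inferred from it.

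Values as log2(CPM + 1) were tested with limma 3.58.1 (with trend; each table was fitted once with its groups together; Benjamini-Hochberg adjustment over all genes tested, threshold 0.05). Genes needed 1 CPM in 3 cell-type libraries (14165 of 19464 above 0) or 5 in 2 libraries of the Smad table (10737 of 22643). All 10 synthetases passed both, Acsl6 without any naive library. The plan had assumed TPM and a minimum of 1 in both tables; the change to 5 followed a check on simulated data, which in Treg against Th0 recovered 78% of 2-fold changes with 5 false calls. edgeR 4.0.16 on the recovered reads, with TMM or DESeq2 1.42.0 size factors, was an alternative. Intervals and limits for a count of 0 cover the spread of these libraries or counting error only.

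The synthetases, the pathway lists and the marker lists were chosen with earlier results of these data known. The 10 synthetases are all named; from each list, genes called in a comparison were counted and at most the 3 with the smallest adjusted p in each direction named, plus Vldlr, Insig1, Slc27a4 and Cpt1a, chosen after their values were seen. Some list results are not reported here. The 5 genes most correlated with Acsbg1 and with Acsl6 were named. Replicate numbers were not treated as pairs. Correlations of deviations were 0.0079 to 0.025 in the cell-type table and 0.013 to 0.264 in the Smad table, 1 of 6 over 0.1. Whether the numbers pair libraries is not known. In the Smad table a replicate block raised the calls over all genes for the Smad3 guide average from 100 to 247. The 8 ATAC libraries and the 4 libraries of an Acsbg1 guide experiment were left out (not analysed here).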

Additional observations from a re-analysis of the deposited data

How the results depend on the processing

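The number of synthetases called in Treg against Th0 was 2, and 1 with a pseudocount of 0.1, 1 to 2 with 1 library left out, and 3 with only the groups compared or edgeR under either scaling (Acsl5 lower added). In sgSmad3 against control it was 1, and 0 with no filter, a minimum of 1, no trend or only the groups compared, and 0 to 0 with 1 library left out. For the Smad3 guide average it was 2, and 0 with no filter, a minimum of 1 or no trend, and 1 to 2 with 1 library left out. The minimum of 1 in the Smad table is the planned one, kept as an alternative after the data were seen. In sgSmad2/3 against control it was 0, and 1 with quantile normalization and 2 with a replicate block (Acsbg1, adjusted p = 0.0429, and Acsl6, adjusted p = 0.0371, in limma); the numbers mark no known pairing, and the block moved no other of these counts by over 1.5 times. Why these counts moved was not tested. Leaving out 1 of 2 libraries leaves a lone one, assumed to vary like the other groups.

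Of 90 changes (10 genes in 9 comparisons), 19 were called, and 14 of these were called in every alternative. Signs turned in 31, of which 0 were called, such as Acsbg1 in sgSmad2 against control (-0.28 to 0.38 with 1 library left out). Over all genes, calls in Treg against Th0 numbered 770, from 453 to 1066 by setting and 503 to 642 with 1 library left out; for the Smad3 guide average 100, from 0 to 247 and 9 to 260; in sgSmad3 10, from 0 to 27 and 0 to 6; in sgSmad2/3 56, from 0 to 110 and 4 to 13; for the Smad2 guide average 11, from 0 to 18 and 0 to 8; and in sgSmad2 1, from 0 to 2. The highest counts by setting for the Smad3 guide average (247), in sgSmad3 (27) and in sgSmad2/3 (110) came with the replicate block. Quantile normalization moved the share called higher in sgSmad3 from 60.0% of 10 to 42.9% of 14, in Treg against naive from 58.5% to 49.1% and in Th0 against naive from 58.0% to 48.7%. Depth limits Acsf2, with 0 to 10 reads in the cell-type libraries, most.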
